A study of Mus musculus with 24 samples.

Results

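Rev-erbα (gene Nr1d1) is a heme-binding nuclear receptor that represses transcription and links the circadian clock to metabolism. Its listed binding sites were examined at 10 genes of fatty acid synthesis and desaturation: Acly, Acaca, Acacb, Fasn, Scd1, Elovl5, Elovl6, Fads1, Fads2 and Thrsp. These were 10 of 22350 protein-coding genes, taken by name, and each was given all sites from 20 kb before to 20 kb behind its gene body (mm9 assembly, GENCODE vM1 models). In these windows lay 15 of 9016 peaks from epididymal white adipose tissue (eWAT), 16 of 10687 peaks from the ventral tegmental area of the brain, and 497 of 245360 ChIP-exo borders from liver. No site fell into the windows of more than 1 gene of the set.

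The eWAT peaks came from ChIP-seq (2 libraries), the brain peaks from ChIP-seq (1 library) and the liver borders from ChIP-exo (2 libraries), where exonucleases digest the bound DNA until the protein stops them, so that each strand ends at a border. All were made from wild-type C57BL/6J mice at zeitgeber time 10, 10 h after lights on, with the same Rev-erbα antibody. The labels used here give neither age nor sex, nor whether animals were pooled. Each tissue was represented by 1 deposited list, so there is no spread between replicates, no test was made, and every count below describes these lists. Read depth is unknown, and the lists hold no expression values with which the tissue labels could be compared. The peak scores and border signals are the authors' own, on scales the files do not define, and were compared only within a list. In ranks, 1 is the highest score and tied peaks share the best rank of the tie. A percentile gives the place in the list, with 100 at the top.

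Fatty acids are built from citrate that leaves the mitochondrion. ATP citrate lyase (Acly) turns it into acetyl-CoA, acetyl-CoA carboxylases (Acaca in the cytosol, Acacb at the mitochondrion) make malonyl-CoA, and fatty acid synthase (Fasn) assembles palmitate. Elovl6 lengthens palmitate and Scd1 introduces the double bond that yields oleate, while Elovl5, Fads1 and Fads2 elongate and desaturate polyunsaturated fatty acids. Thrsp is a small protein induced by thyroid hormone and carbohydrate that promotes lipogenesis. The pathway is active in liver and fat, and in mouse liver Rev-erbα and its corepressor partner HDAC3 are known to restrain lipogenic genes.

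The sites on which the description turns are printed first, each as the plus strand of mm9 from 5′ to 3′; they were chosen after their values had been seen. The Scd1 site is shown as the only peak of the set with a Rev-erbα response element (RORE), and its capitals mark that element, which reads ANTAGGTCA on the opposite strand. The next 2 are the strongest eWAT peaks of Acaca and Thrsp, with capitals from the first to the last liver border in the peak.

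Scd1 eWAT peak, chr19:44461863-44462012: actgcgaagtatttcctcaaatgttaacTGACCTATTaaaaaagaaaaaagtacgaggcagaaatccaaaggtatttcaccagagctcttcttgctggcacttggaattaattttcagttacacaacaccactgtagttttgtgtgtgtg
Acaca eWAT peak, chr11:84011678-84011827: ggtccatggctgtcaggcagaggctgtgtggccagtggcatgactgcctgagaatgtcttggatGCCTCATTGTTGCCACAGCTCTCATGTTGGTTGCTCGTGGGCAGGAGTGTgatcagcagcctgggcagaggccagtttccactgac
Thrsp eWAT peak, chr7:104569520-104569669: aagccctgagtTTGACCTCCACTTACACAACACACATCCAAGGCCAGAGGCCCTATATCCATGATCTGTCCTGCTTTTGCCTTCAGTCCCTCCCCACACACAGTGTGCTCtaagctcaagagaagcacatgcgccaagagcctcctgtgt

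In the 4 liver sites that follow, capitals mark the stretch from the plus-strand border to the minus-strand border of a pair, with 50 bp on each side. They are the strongest pairs of Thrsp and Acly, the pair at the start of Elovl6, a gene with no listed peak in fat or brain, and the Acacb pair beside the only AGGNCA direct repeat found at these sites.

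Thrsp liver pair, chr7:104572447-104572584: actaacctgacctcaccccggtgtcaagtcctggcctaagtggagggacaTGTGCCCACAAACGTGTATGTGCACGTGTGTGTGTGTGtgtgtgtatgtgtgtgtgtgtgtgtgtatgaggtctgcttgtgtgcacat
Acly liver pair, chr11:100392494-100392619: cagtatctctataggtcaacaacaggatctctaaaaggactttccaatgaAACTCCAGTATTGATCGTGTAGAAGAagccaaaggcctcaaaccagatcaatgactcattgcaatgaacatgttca
Elovl6 liver pair, chr3:129235258-129235368: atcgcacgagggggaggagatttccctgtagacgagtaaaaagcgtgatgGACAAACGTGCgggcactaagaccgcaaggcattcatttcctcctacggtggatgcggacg
Acacb liver pair, chr5:114632345-114632464: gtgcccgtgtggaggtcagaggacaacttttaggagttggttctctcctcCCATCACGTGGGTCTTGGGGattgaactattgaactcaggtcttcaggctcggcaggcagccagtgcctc

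Rev-erbα sites were listed near most of these genes. An eWAT peak lay in the window of 6 of the 10 genes (Acaca, Scd1, Elovl5, Fads1, Fads2 and Thrsp), against 28.7% of all protein-coding genes. A brain peak was listed for 9, all but Elovl6, against 41.5%. The 6 genes with an eWAT peak also had a brain peak, whereas 17.5% of all genes had both. A liver border lay in all 10 windows, against 87.7%, and so did a border pair, here a plus-strand border whose next minus-strand border lies 5 to 60 bp downstream, against 51.0%. With only borders of p of 0.01 or less, a pair was left at 2 of the 10 genes, against 7.05% of all genes. The windows of these genes had a median length of 84.5 kb, against 55.4 kb over all protein-coding genes, and a longer window can hold more sites. Those of Thrsp, Scd1 and Fads1 were shorter than 55.4 kb. Sites were also taken within 10 kb of any annotated transcription start, so that a gene with several starts, such as Acaca with 6, was searched around each. By this count 5 genes had an eWAT peak (14.2% of all genes), 6 a brain peak (27.9%) and 9 a liver border pair (35.0%).

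**Figure D1:**
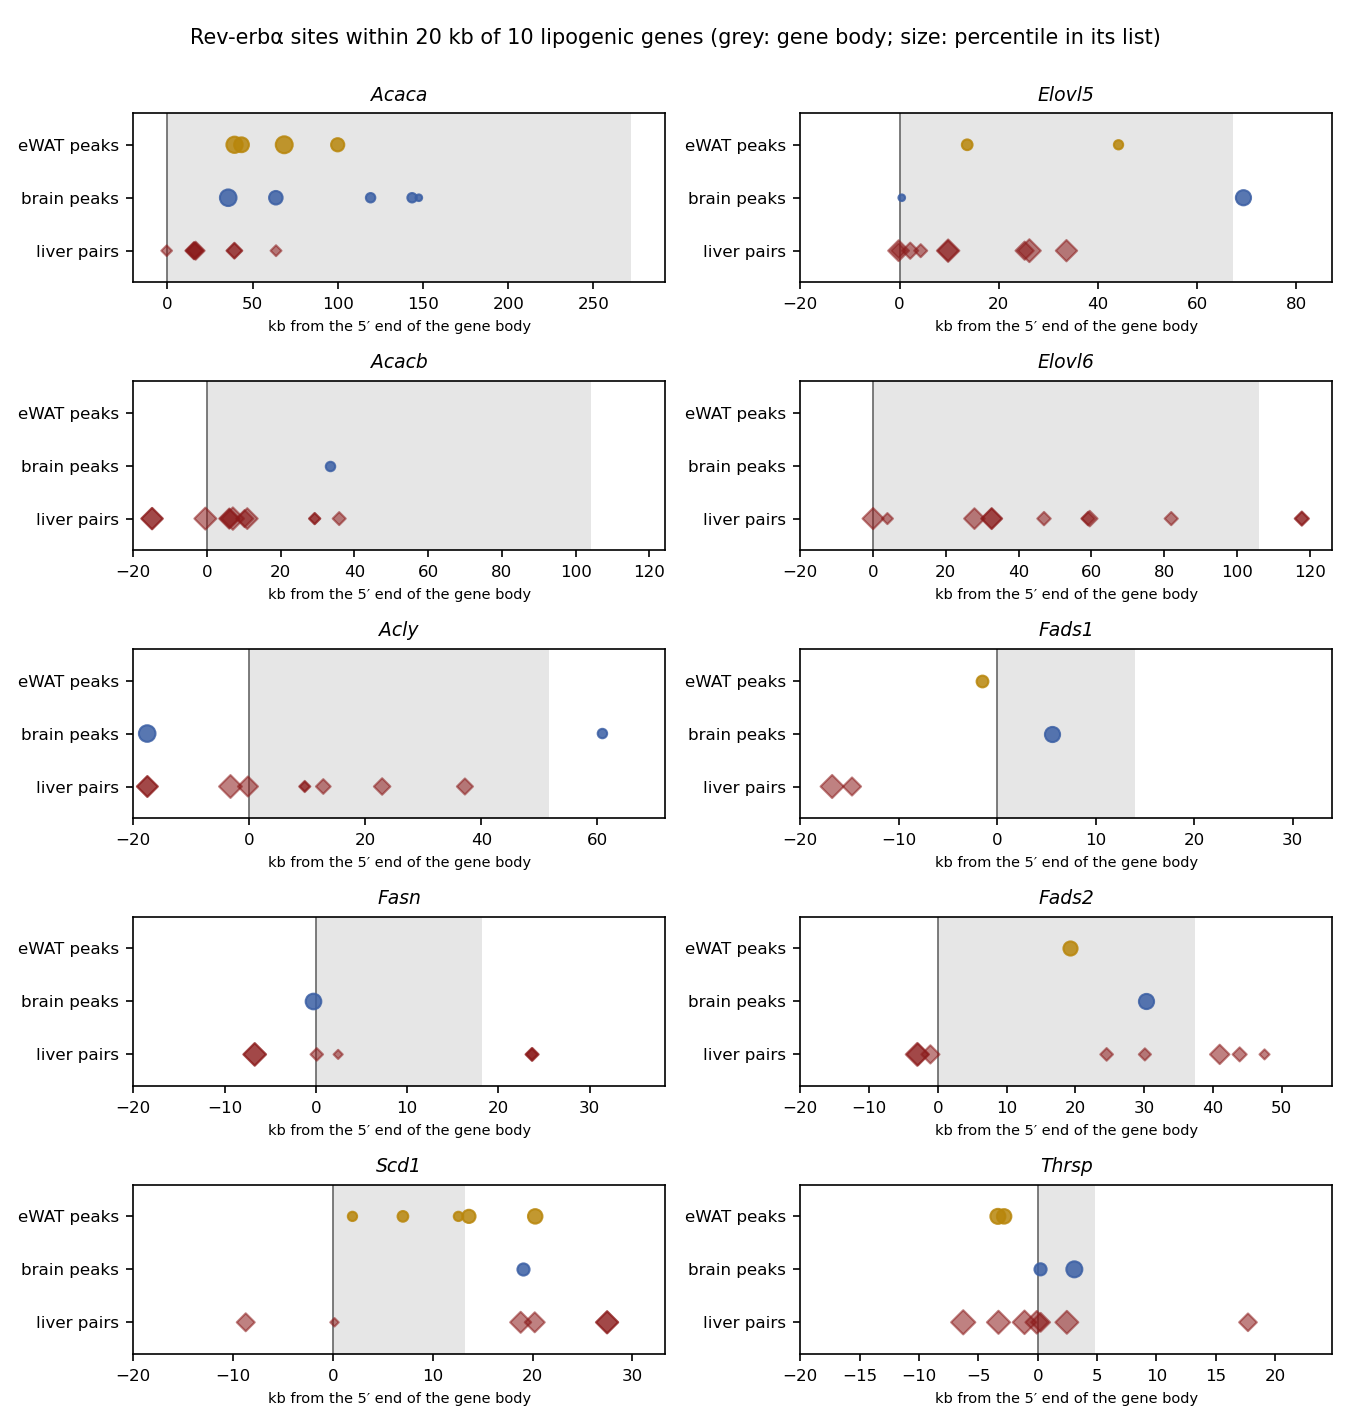
Positions of eWAT peaks (ochre circles), brain peaks (blue circles) and liver border pairs (red diamonds) in the window of each gene, in kb from the 5′ end of the gene body along its transcription. Grey marks the gene body and marker size the percentile of the site in its list; liver pairs appear in all 10 panels, eWAT peaks in 6 and brain peaks in 9.

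No site was common to fat and brain. Of the 15 eWAT peaks, 0 shared even 1 bp with a brain peak. A count of 0 allows a share of up to 20%, which includes the 7.83% found over the whole eWAT list. The closest approach was at Scd1, where the centres of an eWAT and a brain peak lay 1209 bp apart downstream of the gene. At Thrsp the nearest fat and brain peaks lay 3068 bp apart, at Acaca 3705 bp, at Fads1 7149 bp, at Fads2 11030 bp and at Elovl5 13189 bp. Liver borders (at most 100 bp from the peak centre) accompanied 6 of the 15 eWAT peaks (40.0%, 95% Wilson interval 19.8 to 64.3, counting error only), against 29.98% of all eWAT peaks. The same held for 8 of the 16 brain peaks (50.0%, 28.0 to 72.0), against 36.4% of all brain peaks. Both intervals include the share of the whole list, and both treat peaks of the same gene as independent.

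In score the peaks were spread through their lists. The eWAT peaks ran from 11.1 to 47.6 with a median of 15.2, against a median of 14.2 over the list, and 9 of 15 scored above the list median. The brain peaks ran from 18.2 to 54.5 with a median of 27.3, against 25.5, and 8 of 16 scored above the list median. All scores of a list lie within 0.055 of a whole multiple of 1 step (1.013 in eWAT, 3.636 in brain). In these steps the strongest eWAT peak of the set counted 47 and the weakest 11, and the brain peaks counted from 15 down to 5, so scores near the low end differ by only a few steps. Of the peaks, 1 of 15 in eWAT lay within 1 kb of the start of any protein-coding gene, against 8.76% of the list, and 4 of 16 in brain, against 37.9%. The nearest start belonged to a gene of the set for 14 of the 15 eWAT peaks and for 9 of the 16 brain peaks. By gene, an eWAT peak lay within 1 kb of a start of 1 gene of the set, Acaca (3.58% of all genes), and a brain peak within 1 kb of a start of 3, Fasn, Elovl5 and Thrsp (18.3% of all genes).

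**Figure D2:**
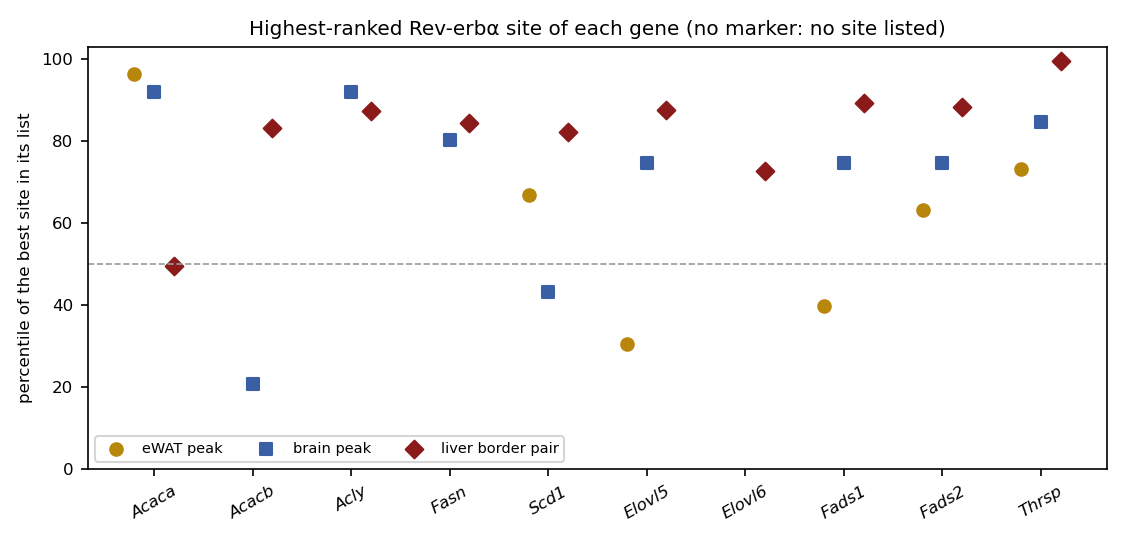
Percentile of the highest-ranked eWAT peak (circle), brain peak (square) and liver border pair (diamond) of each gene within its own list, with the list's middle as a dashed line. Acaca had the best eWAT peak (96.3), Acaca and Acly the best brain peaks (92.0 each) and Thrsp the best liver pair (99.5).

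Among the enzymes that make palmitate, Acaca stood first in fat, and Acly and Fasn had sites in brain and liver only. Acly (chromosome 11, 100337667 to 100389314, minus strand) had no eWAT peak. Its 2 brain peaks lay outside the gene body. The higher, with a score of 54.5 (rank 771; 100406839 to 100406988), lay 17599 bp upstream of Acly but 8 bp before the start of its neighbour Ttc25, and 4 liver borders lay within 100 bp of it. The lower (score 21.8, rank 6985) lay in an intron of Klhl11. The liver list had 43 borders and 9 pairs around Acly. Its strongest pair lay 3242 bp upstream of the nearest Acly start (borders at 100392544 and 100392569, 25 bp apart, signals 1.89 and 0.996, rank 3377 of 26563 pairs). In the printed sequence of this pair the motif TATTGAT of HNF6, a liver transcription factor, lies between the borders. A CCAAT box starts 7 bp and an AGGTCA half-site 38 bp before the plus border. A second pair lay 234 bp upstream of an Acly start.

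Acaca (chromosome 11, 83943174 to 84215153, plus strand) had the highest-ranked eWAT peak of the set. This peak scored 47.6 (rank 325 of 9016; 84011678 to 84011827) and lay in an intron, 2812 bp downstream of one of the gene's 6 annotated starts. Another intronic peak scored 29.4 (rank 1053), a peak in annotated UTR, 70 bp downstream of a start, scored 19.2 (rank 2526), and the fourth, deeper in the gene, scored 15.2 (rank 3959). The first 3 of these each had 1 to 3 liver borders within 100 bp, and the fourth had none. The borders in the strongest peak were 2 on the minus strand at 84011742 and 84011758 and 1 on the plus strand at 84011791 with the highest signal of the Acaca window, 1.63. With the plus border downstream of the minus borders, they formed no pair, and the printed sequence held none of the motifs searched. Brain had 5 Acaca peaks, led by one with a score of 54.5 (rank 771), which lay in an intron 7736 bp upstream of the nearest Acaca start and within the overlapping gene Gm11437. The other 4 scored 29.1 or less, and those that scored 21.8 and 18.2 lay nearest to the start of Gm17722. Acaca is the largest gene of the set, at 272 kb, and its 64 liver borders came to 2.05 per 10 kb, the lowest density of the 10 genes.

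The pattern of Acaca, high in fat and brain and middling in liver, was compared with that of all other protein-coding genes over 3 values, the percentiles of the best eWAT peak (96.3), brain peak (92.0) and liver pair (49.6). The nearest genes by Euclidean distance were Pgm2l1 (distance 3.41 percentile points), 4930558K02Rik (4.03) and Nfatc2 (4.43).

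Acacb (chromosome 5, 114596544 to 114700770, plus strand), whose product makes the malonyl-CoA that restrains fatty acid oxidation, had no eWAT peak and 1 weak brain peak in an intron (score 21.8, rank 6985). In liver it had 60 borders and 11 pairs, the highest number of pairs in the set together with Elovl6. Pairs that shared a minus border were counted each. Those with plus borders at 114581621 and 114581635 shared a minus border and lay in an intron of the neighbour Ung. The strongest Acacb pair lay in an intron of Acacb (borders at 114603558 and 114603573, summed signal 2.55, rank 4457). A further one lay 436 bp upstream of a start (summed signal 2.34, rank 5339). A weaker pair at 114632395 and 114632414 (summed signal 0.905) had an E-box, CACGTG, between its borders. It also had, 38 bp before the plus border, a direct repeat of AGGNCA spaced by 1 base, of which the first copy reads AGGTCA.

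Fasn (chromosome 11, 120667254 to 120685492, minus strand) carried its brain peak at the promoter. The peak scored 40.0 (rank 1821; 120685682 to 120685831), lay 264 bp upstream of a start and had 1 liver border within 100 bp. No eWAT peak was listed in its window. The 40 liver borders included 7 pairs, of which the strongest shared a minus border in an intron of Ccdc57, 6708 and 6685 bp upstream of Fasn (120692203, signal 1.75; summed signals 2.63 and 2.61). A weaker pair lay 101 bp downstream of the Fasn start (summed signal 0.869).

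Scd1 (chromosome 19, 44468941 to 44482199, minus strand) held more eWAT peaks than any other gene of the set. Its 5 peaks scored 18.2, 15.2, 12.2, 11.1 and 11.1, the highest at percentile 67.0 of the list, and lay from 1956 to 20262 bp downstream of its single start. Of these, 2 were in introns, 1 in UTR and 2 behind the gene. Peaks this dense, 9.39 per 100 kb, were listed for 11 of 22350 genes, Scd1 included. The outermost peak, also the highest (rank 2813), holds the RORE printed above, and a liver pair lay in the same peak (borders at 44461970 and 44461998), the nearer border 71 bp from the element. The brain peak of Scd1 lay 19053 bp downstream of the start (score 25.5, rank 5169). In liver Scd1 had 34 borders and 6 pairs, with the strongest pair 27457 bp downstream of the start (summed signal 2.48, rank 4732) and a faint one 158 bp downstream of it (summed signal 0.449, rank 26407).

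Of the elongases, Elovl5 had sites in all 3 tissues and Elovl6 in liver alone. Elovl6 (chromosome 3, 129235304 to 129341413, plus strand) was the only gene of the set with neither a fat nor a brain peak. It nevertheless had 63 liver borders and 11 pairs. The strongest pair lay at the start itself, with borders at 129235308 and 129235318 and the centre 9 bp downstream of it (summed signal 1.99, rank 7220). Of the others, 8 lay in introns and 2, with a shared minus border, behind the gene. Elovl5 (chromosome 9, 77765171 to 77832326, plus strand) had 2 intronic eWAT peaks of low score (12.2 and 11.1) and 2 brain peaks, one behind the gene (score 36.4, rank 2367) and a weak one 374 bp downstream of a start (score 18.2, rank 9969). None of these 4 peaks had a liver border within 100 bp. Its 9 liver pairs were led by an intronic one with signals of 1.84 and 1.08 (borders at 77791325 and 77791344, rank 3294) and by one at 77774954 and 77774970 (summed signal 2.63), both with an AGGTCA half-site within 50 bp.

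The desaturase genes Fads1 and Fads2 lie apart on chromosome 19, and their windows did not touch. Fads1 (10257378 to 10271360, plus strand) had an eWAT peak 1596 bp upstream of its start (score 13.2, rank 5026) and a brain peak in an intron (score 36.4, rank 2367) with 2 liver borders within 100 bp. Fads2 (10138654 to 10175993, minus strand) had an intronic eWAT peak (score 17.2, rank 3142) and an intronic brain peak (score 36.4, rank 2367) with 3 liver borders within 100 bp. The Fads2 brain peak lay slightly nearer to the start of Fads3 (29710 bp) than to that of Fads2 (30221 bp). The liver list held 87 borders around Fads2, the highest count and density of the set at 11.25 per 10 kb. Of all protein-coding genes, 0.479% had at least this density. The Fads2 window also takes in part of Fads3. Borders from 10124571 to 10136299 lay behind the Fads2 body, on the Fads3 side, and count towards the density given for Fads2. Pairs with plus borders at 10128442 and 10132069 lay in introns of Fads3, and that at 10134970 lay between genes. The 2 strongest pairs of the window lay 2999 and 2896 bp upstream of the Fads2 start (summed signals 2.99 and 2.32, ranks 3100 and 5428). Fads1 had 35 borders and 2 pairs, 16769 and 14752 bp upstream.

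Thrsp (chromosome 7, 104561448 to 104566240, minus strand) was the smallest gene of the set and had the strongest liver site. Its 30 borders included the top pair of the 10 genes, with the plus border at 104572497 (signal 6.79) and the minus border at 104572534 (signal 5.57), centred 6275 bp upstream of the start. The pair ranked 123 of 26563 by signal, with p-values of 0.0256 and 0.0384 for its borders. No fat or brain peak lay within 1 kb of it. An E-box lies between these borders, and an AGGTCA half-site, read as TGACCT on the plus strand, starts 43 bp before the plus border. The minus border falls in a run of TG repeats that is unbroken for 18 bp. The part of the repeat in this signal was not tested. A second pair 1113 bp upstream ranked 1664, and one at the promoter, 80 bp upstream, ranked 3816.

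Fat and liver sites of Thrsp met at one place. The higher of its 2 eWAT peaks (score 20.3, rank 2301) lay 3354 bp upstream of the start and contained a liver pair with borders at 104569531 and 104569560 (signals 1.75 and 1.42, rank 2731). In the printed sequence an AGGTCA half-site, read as TGACCT on the plus strand, begins 1 bp behind the plus border. The lower eWAT peak (score 18.2) lay 2830 bp upstream and had no border within 100 bp. The brain peaks lay inside the gene, the first in its intron, 3086 bp behind the start (score 43.6, rank 1451), and the other in the coding exon 238 bp downstream (score 25.5, rank 5169). The exonic peak had 3 liver borders within 100 bp.

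**Figure D3:**
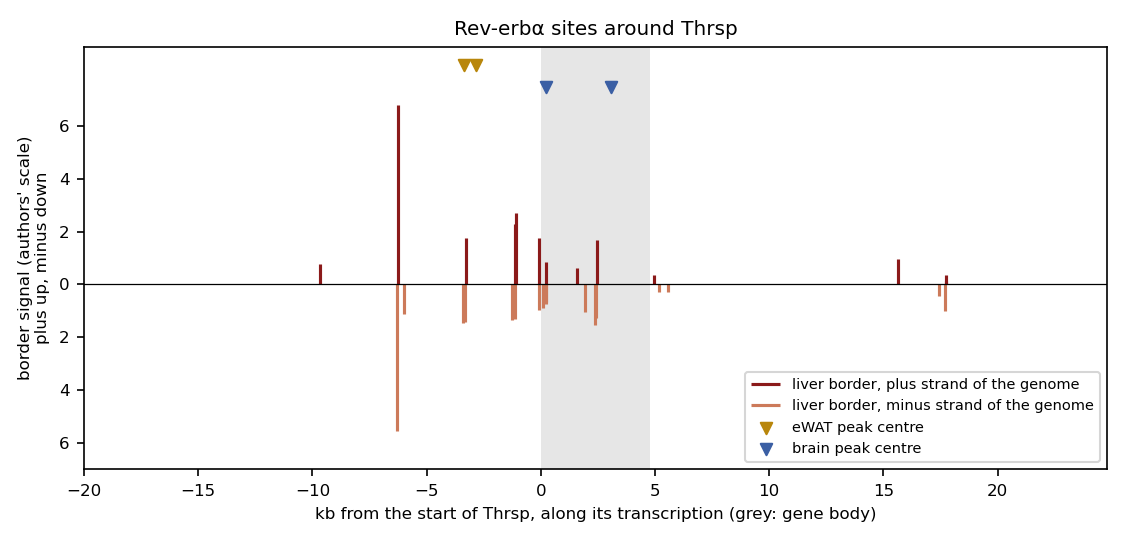
Liver ChIP-exo border signals around Thrsp (plus strand upward, minus strand downward, authors' scale) with the centres of eWAT and brain peaks as triangles, in kb from the start along transcription. The pair 6275 bp upstream has signals of 6.79 and 5.57, and all other borders in the window have signals of 2.69 or less.

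Counted over their joint windows, sites of each kind were denser around these genes than around the other protein-coding genes. The windows held 456.5 borders per Mb, against 138.7 per Mb in the merged windows of the other protein-coding genes, and 71.6 border pairs per Mb against 15.3. For eWAT peaks the density was 13.8 per Mb against 4.80, and for brain peaks 14.7 against 6.535. The eWAT value rested on few genes: Scd1 and Acaca held 5 and 4 of the 15 peaks, and 4 genes held none. Each of the 10 genes had more borders per 10 kb, from 2.05 at Acaca to 11.25 at Fads2, than the median gene with 1.36. The shares of all genes with at least the same density were 37.0% for Acaca, 16.4% for Elovl5, 13.8% for Acacb, 12.7% for Elovl6, 10.6% for Acly, 4.44% for Scd1, 4.18% for Fads1, 3.75% for Thrsp and 3.48% for Fasn.

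**Figure D4:**
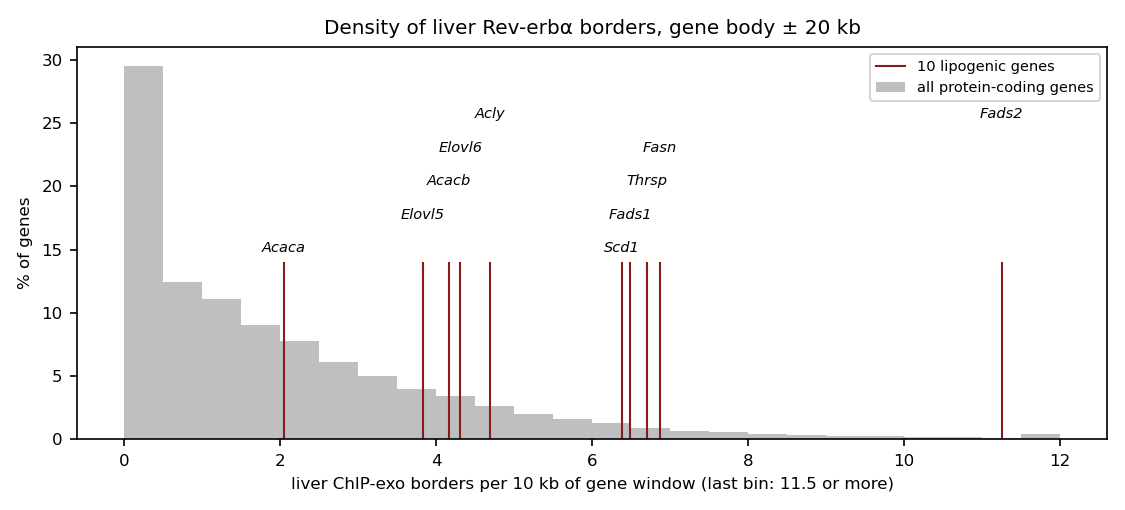
Liver ChIP-exo borders per 10 kb of window (gene body with 20 kb on each side) for the 10 lipogenic genes (red lines) and for all 22350 protein-coding genes (grey bars, percentage of genes per bin of 0.5, the last bar also holding all genes beyond it). The 10 genes lie between 2.05 and 11.25, and 29.6% of all genes lie in the lowest bin.

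Liver pairs had about the median strength of the list. The single borders had a median signal of 0.536, against 0.471 over all borders, and 58 of 497 were in the top 10% of the list. The 78 pairs, which used 64 different minus borders, had a median summed signal of 1.40, against 1.41 over all 26563 pairs, and 38 of the 78 were above the middle of the list. Only 2, both at Thrsp, were in the top 10%. The median spacing between borders was 29.5 bp, against 29 bp over all pairs, and 22 of 78 pairs were 21 to 30 bp apart (28.2%, against 29.0% of all pairs). Of the 78 pairs, 46 lay in introns, 27 between genes and 5 in exonic sequence; no such split was made for all pairs. A border lay within 1 kb of a start of all 10 genes (54.9% of all genes), and a pair of 8, all but Fads1 and Fads2 (19.8% of all genes). A peak centred within 1 kb came from eWAT at 4 pairs (5.13%, against 7.71% of all pairs on chromosomes 1 to 19 and X) and from brain at 11 (14.1%, against 11.1%), and 63 pairs had neither (80.8%, against 82.9%).

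The direct Rev-erbα element was found at 1 site of these genes. The motif search covered both strands, 50 bp to either side of a site's centre, with liver shares again over the 26535 pairs on chromosomes 1 to 19 and X. A RORE (ANTAGGTCA) was found in 1 of 15 eWAT peaks, the Scd1 site, against 2.85% of all eWAT peaks, and in 0 of 16 brain peaks and 0 of 78 liver pairs, against 1.33% and 0.788%. The paired element RevDR2 was in none of the 3 groups of sites, against 0.144% of eWAT peaks, 0.0655% of brain peaks and 0.0452% of liver pairs. The half-site AGGTCA, which is also part of the RORE, was in 1 eWAT peak (13.9% of all), 1 brain peak (8.34%) and 15 liver pairs (19.2%, against 16.1% of all pairs). Those in the printed Thrsp eWAT peak and the printed Thrsp liver pair lay farther than 50 bp from the site's centre and were not counted. At the liver pairs the E-box CACGTG was found at 11 (14.1%, against 10.3%), the HNF6 motif at 4 (5.13%, against 9.94%) and the HNF4 motif CAAAGTCCA at 4 (5.13%, against 1.23%). The 4 HNF4 matches lay at only 2 places, in introns of Acaca and of Acly, since pairs that shared a minus border were counted each. E-box pairs at Elovl5 and at Fasn also shared minus borders. Also searched were the CCAAT box (10.3%, against 15.4%), the GC box GGGCGG (8.97%, against 6.67%) and the C/EBP motif TTGCNNAA (10.3%, against 13.6%). The D-box TTANGTAA was at 3.85% of these pairs (against 3.11%). Direct repeats of AGGNCA spaced by 1 and by 4 bases were at 1.28% and 0% (against 0.95% and 0.286%). The sterol response element TCACNCCAC, by which SREBP factors act on lipogenic genes, was at none of the peaks or pairs, against 0.410% of eWAT peaks, 0.421% of brain peaks and 0.467% of liver pairs. With so few sites, 1 match moves the share in eWAT peaks by 6.67 percentage points.

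Among 36 other genes of the pathway, taken by name in 4 lists, an eWAT peak was listed for 12 (33.3%) and a brain peak for 25 (69.4%). Both were listed for 10 (27.8%), and a liver border pair for 27. Of all protein-coding genes, 28.7% had an eWAT peak, 41.5% a brain peak, 17.5% both and 51.0% a liver border pair. Of 8 genes that supply precursors and reducing power, 3 had an eWAT and 7 a brain peak. The best-ranked site was in the window of Mlycd, which degrades malonyl-CoA, with an eWAT rank of 167 and a brain rank of 519, but it lay behind the gene, nearest to the start of Osgin1. The eWAT and brain peaks overlapped there, as they did at Mid1ip1, a relative of Thrsp (UTR; eWAT peak on chromosome X, 10296228 to 10296377, rank 2526; brain rank 3030). Pgd, an enzyme of NADPH supply, had an eWAT rank of 1127, and Slc25a1, the mitochondrial citrate carrier, and Idh1 each had a brain rank of 2367.

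Of 9 genes of lipogenic transcription control, 3 had a listed site in fat and 8 in brain, against 28.7% and 41.5% of all genes. Mlxipl, which encodes the carbohydrate-responsive factor ChREBP, had an intronic eWAT peak (rank 1127) with 2 liver borders, and Nr1h3, the oxysterol receptor LXRα, one of rank 2526. Usf1, an E-box-binding factor, had an eWAT rank of 6686 and a brain rank of 4034. Srebf1, which encodes the lipogenic factor SREBP, had no eWAT peak and a brain peak of rank 5169. Insig1, which retains SREBP in the endoplasmic reticulum, had a brain peak 241 bp upstream of its start (rank 1166). Of 15 further genes of elongation and desaturation, 5 had an eWAT peak, led by Ptplb (rank 2526), Hsd17b12 (2813) and Tecr (3142), and 8 a brain peak, led by Ptplad1 (519), Ptpla and Scd2 (1166 each). Of 4 genes of mitochondrial fatty acid synthesis, Oxsm had an eWAT peak (rank 4438), and Oxsm and Mecr had brain peaks (ranks 6985 and 2367).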

How the data were processed

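The series held 24 samples in 16 groups. Of these, 3 groups (5 samples) were used through 1 deposited list each; the other 13 groups (19 samples) were not analysed here. Per the submitters' processing notes, Bowtie (0.12.8 for ChIP-seq and 1.1.1 for ChIP-exo) and HOMER were used with the mm9 build. The notes used here assign them no roles, and give no caller settings, thresholds, input use or replicate pooling. The authors deposited a score per peak (unit not stated, peaks 150 bp wide) and, per the file headers, a signal and a p-value per ChIP-exo border (p 0.00503 to 0.05). A stricter threshold or other depth would change which sites are listed.

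All coordinates lay within mm9 (NCBIM37) chromosome lengths. Python 3.11.15 with pandas 2.3.3, numpy 2.4.6 and pysam 0.24.0 placed each site by its central base, with GENCODE vM1 gene models (22350 protein-coding genes on chromosomes 1 to 19 and X, 70018 starts), and read sequences from that genome. Window counts and border pairing were checked on simulated data. The 10 genes, the pathway lists and the motifs were chosen with earlier results of these data known. The text names all 10 genes and, of each pathway list, up to 3 genes by eWAT rank and up to 3 by brain rank, with Srebf1 added after its values were seen. No test was made, since there is 1 list per tissue; the main counts stand beside the same counts over all genes or sites. Alternatives changed the window, the score or p threshold, the pair spacing, the overlap and the motif window.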

Additional observations from a re-analysis of the deposited data

How the results depend on the processing

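Across 11 counts and 37 alternatives, 30 alternative values stayed within 1.5 times the reported one. With peaks scoring above the list median, 3 genes had peaks in both tissues (Acaca, Fads2 and Thrsp, against 7.61% of all genes), and the windows held 9 eWAT and 8 brain peaks. With borders of p of 0.01 or less, 2 genes had a liver border pair (2 pairs in all, against 7.05% of all genes). The pair left at Thrsp was the one at 104548505 and 104548544, by the start of Ndufc2, and that at Elovl6 was an intronic one formed anew (129317220 and 129317265); neither printed pair of these genes was left. At this threshold, which leaves fewer borders, 3 eWAT peaks (10.6% of all) and 1 brain peak (9.83% of all) had a border within 100 bp. Windows of 10 and 50 kb gave 15 and 18 eWAT peaks, 15 and 20 brain peaks and 66 and 88 pairs. No paired analysis was possible because each tissue has 1 list and no values per replicate. Unknown depth limits all counts: a gene with no listed site may have sites below the authors' thresholds.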
